A study of Mus musculus with 4 samples.

Results

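The Ly6 genes described here are 8 rows of the deposited expression table, chosen by name: Ly6a, which encodes the surface protein SCA1, with Ly6c1, Ly6c2, Ly6d, Ly6e, Ly6h, Ly6i and Ly6k. They are 8 of 25965 genes in the table. RNA of cultured vascular smooth muscle cells was sequenced in 4 libraries, numbered 1 to 4 here, which form a single group. The cells were taken from the medial layer of aortas of healthy wild type male mice on the C57Bl/6 background, aged 8 to 14 weeks, freed with collagenase and elastase and grown in medium with fetal calf serum for 3 to 5 passages. There was no treated, sorted or uncultured group, and the labels do not say whether the libraries came from separate animals or separate cultures, so the spread between them may be partly technical. Levels are log2 scaled read counts as deposited, in which a value of 0 took 22 to 30 reads, and a gene was called detected at a value of at least 0 in 4 of 4 libraries. In bulk RNA, a change in the number of cells that express a gene and a change in RNA per cell cannot be told apart.

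Ly6 proteins are small, cysteine-rich surface proteins of the Ly6/uPAR superfamily, most of them held in the outer leaflet of the membrane by a glycosylphosphatidylinositol (GPI) anchor. SCA1 is the marker by which mouse haematopoietic stem cells and many mesenchymal progenitors are sorted, and in the vessel wall it is used to find adventitial progenitors and smooth muscle cells that have left the contractile state. Ly6c1 and Ly6c2 encode the closely related forms of the Ly6C antigen, which is known from endothelial cells, monocytes and lymphocytes. Ly6e is broadly expressed and interferon-inducible, Ly6d marks lymphoid progenitors and stratified epithelia, Ly6h is known from brain, Ly6k from testis, and Ly6i is a close relative of Ly6a.

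All 8 genes lie in one cluster on chromosome 15, and several arose as near copies, so the first question was how far their sequences can be told apart. The first 150 coding bases are shown for the closest relatives, from GENCODE M21 transcripts on GRCm38, 5′ to 3′, with capitals at bases that differ from Ly6a.
Ly6a: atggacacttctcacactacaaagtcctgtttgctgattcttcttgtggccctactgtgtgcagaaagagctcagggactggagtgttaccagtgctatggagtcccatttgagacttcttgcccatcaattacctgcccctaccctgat
Ly6i: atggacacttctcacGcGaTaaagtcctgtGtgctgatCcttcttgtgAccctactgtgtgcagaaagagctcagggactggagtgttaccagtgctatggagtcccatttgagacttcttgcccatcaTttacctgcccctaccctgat
Ly6c1: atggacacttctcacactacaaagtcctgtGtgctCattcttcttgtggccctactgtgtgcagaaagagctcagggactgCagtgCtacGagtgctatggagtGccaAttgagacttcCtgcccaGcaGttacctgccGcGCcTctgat
Ly6c2: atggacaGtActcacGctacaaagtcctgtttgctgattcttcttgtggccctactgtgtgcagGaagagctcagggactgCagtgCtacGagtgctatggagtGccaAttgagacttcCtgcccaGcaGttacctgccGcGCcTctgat
In this stretch Ly6i differed from Ly6a at 7 bases, Ly6c1 at 14 and Ly6c2 at 16. Over the whole coding sequence, the identity to Ly6a was 86.3% for Ly6i, 81.8% for Ly6c1 and 81.6% for Ly6c2. Ly6c1 and Ly6c2 were 97.7% identical and shared an unbroken run of 188 coding bases. The other members were distant, with 46.3% to 52.3% identity to Ly6a.

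Shared sequence was then counted in windows of 50 bases over the protein-coding transcripts of each gene. Ly6d and Ly6e had none of their 695 and 2829 windows in another gene, so reads of that length in them have one origin in the annotated transcripts. Ly6c1 shared 32.8% of 1764 windows with other genes, including 379 windows with Ly6c2 and 195 with Ly6a. Ly6a shared 246 of 1297 windows. On the reference transcript of Ly6a (Ly6a-201, 819 bases) the overlap with Ly6c1 was 11 of 770 windows, none of them within the coding sequence, and the overlap with Ly6i was 31. Ly6k shared 32.7% of its windows with Gm17189, an antisense transcript across it that the table also lists. The library kit keeps the strand of the RNA, but no label or note used here states the read length or the strand setting of the counting. Reads of Ly6a, Ly6c1, Ly6c2 and Ly6i, and of Ly6k and its antisense partner, may be divided differently from their origin.

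Of the 8 genes, 4 were detected, Ly6a, Ly6c1, Ly6e and Ly6d, against 47.4% of all genes in the table. Ly6a, on the minus strand at chr15:74994878-74997634 (GRCm38), was the highest of the family per kb of exon in each library. Its deposited values were 8.14, 8.37, 7.05 and 6.89 in libraries 1 to 4, from 8206, 9583, 2915 and 3486 reads. Libraries 1 and 2 were high and libraries 3 and 4 low, with a highest-to-lowest ratio of 2.79. The mean was 7.61 ± 0.75 (SD, n = 4). Per kb of exon it lay above 94.8% of detected genes, and not divided by length above 86.4%. Ly6a alone supplied 68.3%, 59.6%, 57.5% and 58.2% of the reads on the 8 genes.

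Ly6c1 (chr15:75045017-75048837), the Ly6C form described in endothelium, followed the same libraries at a lower level. It measured 5.86, 6.07, 4.58 and 4.51, a mean of 5.26 ± 0.83 (SD, n = 4), from 1691, 1945, 526 and 670 reads. Per kb of exon this lay above 72.8% of detected genes, and not divided by length above 52.8%. Its near copy Ly6c2 (chr15:75108160-75111684), the form described in monocytes, had 0, 3, 0 and 0 reads. Where none was seen, up to 3 in a library remain possible, for counting error only. Pooled over libraries the ratio of Ly6c1 to Ly6c2 reads was 4832 to 3, and per exon length 2632, with an exact binomial 95% interval of 900 to 12765. Per length of the longest coding transcript it was 1569 (536 to 7609). These intervals cover counting error only, and all 3 Ly6c2 reads were in library 2.

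Ly6e (chr15:74955051-74959905, plus strand) stood highest in library 2. Its values were 6.12, 7.26, 6.11 and 5.73, from 2022, 4435, 1524 and 1561 reads, with a mean of 6.31 ± 0.66 (SD, n = 4). Libraries 1, 3 and 4 lay within 0.4 of each other, and library 2 was 2.89 times the lowest. Ly6d (chr15:74762056-74763567), the lymphoid and epithelial gene, was low, and was highest in library 4, where Ly6a was lowest. It measured 1.33, 1.43, 1.98 and 3.07, a mean of 1.95 ± 0.80 (SD, n = 4), from 73, 78, 87 and 247 reads. Library 4 was 3.35 times library 1.

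The other 3 genes were at or near the limit of counting. Ly6k (chr15:74796874-74799986) had 13, 9, 14 and 16 reads, a similar number in each library. A chi-square test of these reads against Poisson sampling at the libraries' totals gave p = 0.313, against 0.00141 for Ly6i. Ly6i (chr15:74979812-74983430) had 2, 13, 0 and 9 reads, so it was seen in 3 of 4 libraries. Ly6a exceeded it per exon length by a pooled ratio of 967 (exact binomial 95% interval 650 to 1509, counting error only). Ly6h (chr15:75551268-75567255) had no reads in any library, as did 28.7% of all genes.

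**Figure D1:**
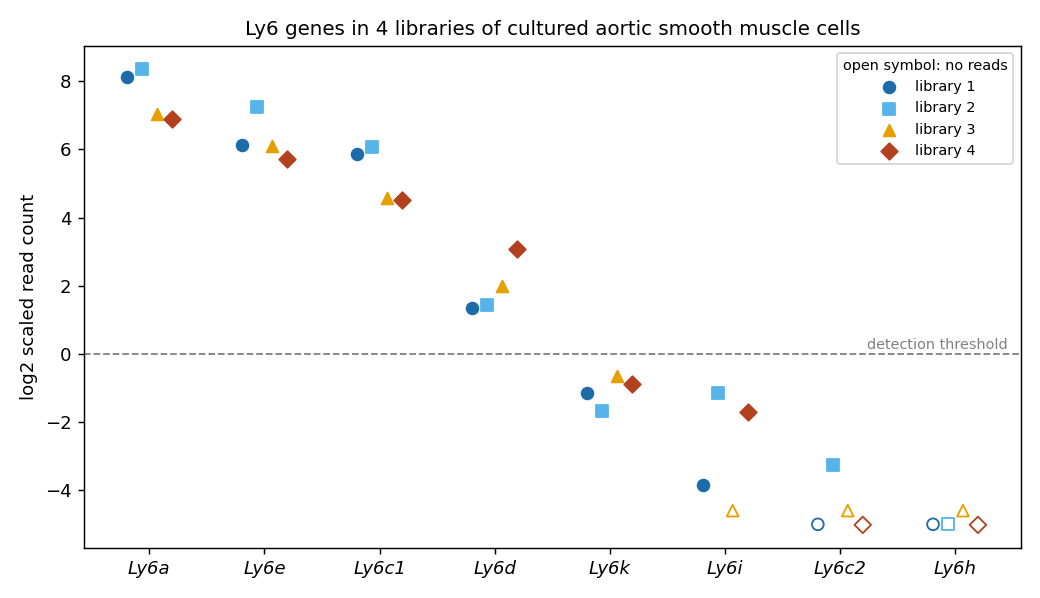
Log2 scaled read count (vertical axis) of each Ly6 gene in libraries 1 to 4 (symbols); open symbols are libraries without reads, plotted at the floor of the deposited values, and the dashed line is the detection threshold. Ly6a, Ly6e, Ly6c1 and Ly6d lie above the threshold in 4 of 4 libraries, and Ly6h has no reads in any.

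Levels of different genes were compared per kb of exon, within libraries. The order was Ly6a (7.34 ± 0.75), Ly6c1 (4.51 ± 0.83), Ly6e (4.39 ± 0.66), Ly6d (2.38 ± 0.80), Ly6k (-0.82 ± 0.45) and Ly6i (-3.04 ± 1.66), as log2 scaled reads per kb (mean ± SD, n = 4), with Ly6c2 and Ly6h below. Ly6a exceeded Ly6c1 by 2.83 ± 0.09 on the log2 scale, in 4 of 4 libraries. With the longest coding transcript as length this difference was 2.18, and not divided by length 2.36. The neighbours Ly6c1 and Ly6e did not differ beyond their spread: the difference was 0.12 ± 0.55, and Ly6c1 was the higher in library 1 alone. With the longest coding transcript as length it was 0.38 ± 0.55, with Ly6c1 the higher in 3 of 4 libraries. Not divided by length, Ly6e exceeded Ly6c1 by 1.05 in the mean. Ly6e exceeded Ly6d by 2.01 ± 1.33, and Ly6d exceeded Ly6k by 3.20 ± 0.66, each in 4 of 4 libraries. With the longest coding transcript as length Ly6e minus Ly6d was 2.74, and not divided by length 4.35. Ly6k exceeded Ly6i in 3 of 4 libraries.

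Among the 7 genes with reads there were 21 pairs, and 19 of them had the same order in 4 of 4 libraries. For each of these 19, an exact sign-flip permutation test over the libraries, two-sided, gave p = 0.12 (2 of 16 arrangements), with Benjamini-Hochberg adjusted p = 0.138 over 21 pairs. This p is the smallest that 4 libraries allow, so no pair could pass a threshold of 0.05. For Ly6c1 against Ly6e the exact test gave p = 1, and for Ly6k against Ly6i p = 0.25. Differences that involve Ly6i or Ly6c2 contain libraries without reads, set at the deposited floor of 0.9 read. In library 3 neither Ly6i nor Ly6c2 had reads. The order of this pair there came from exon length alone, although the pair is counted among the 19.

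**Figure D2:**
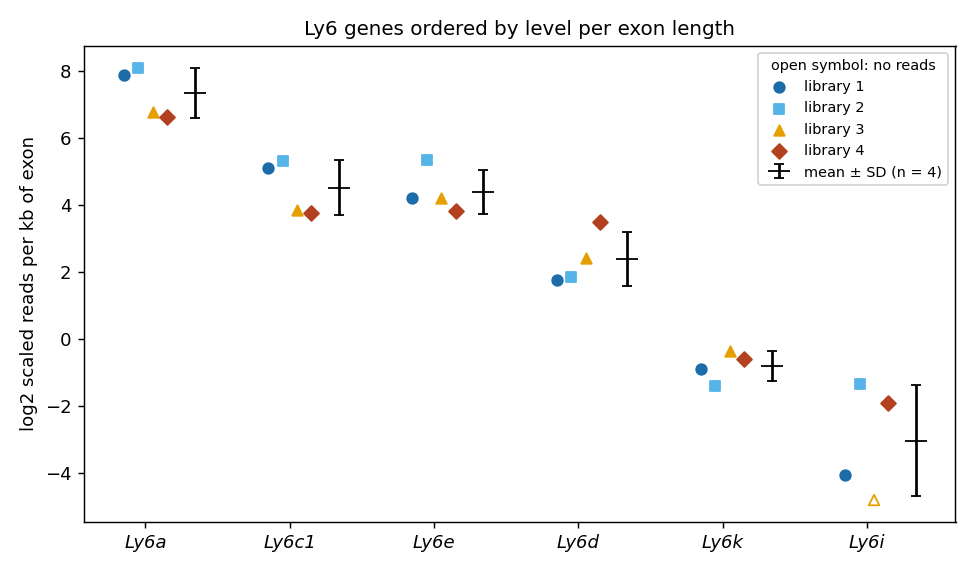
Log2 scaled reads per kb of exon (vertical axis) of the 6 Ly6 genes with more than 3 reads in all, with a symbol for each library and the mean ± SD beside it. Ly6a lies above the other genes in each library, and the symbols of Ly6c1 and Ly6e overlap.

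The differences between libraries were set against those of all genes. All 4 detected Ly6 genes had an SD above 0.5, as did 40.5% of detected genes, and none had an SD above 1. Ly6a and Ly6c1 changed side by side: as log2 reads, Ly6a exceeded Ly6c1 by 2.28, 2.30, 2.47 and 2.38 in libraries 1 to 4, although each gene spanned about 1.5 on the same scale. In linear reads Ly6a was 4.85, 4.93, 5.54 and 5.20 times Ly6c1. Part of the windows of both genes is shared, as given above, and its part in this steady ratio was not tested. The distance between the patterns of 2 genes was measured as the root mean square difference of their log2 values after each gene's mean was subtracted. It was 0.08 between Ly6a and Ly6c1, which placed Ly6c1 10th of 12305 other detected genes in likeness to Ly6a. Ly6e stood at 0.42 from Ly6a and Ly6d at 1.30, the latter ranked 12026th.

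The scale of the libraries bears on these differences. Size factors from the median ratio of genes moved the median detected gene by -0.32, -0.10, 0.30 and 0.12 in libraries 1 to 4. On the deposited scale libraries 1 and 2 both lay above libraries 3 and 4 in 51.8% of detected genes, and with size factors in 27.0%. Ly6a kept this order with size factors (7.82, 8.28, 7.35 and 7.01), as did Ly6c1 (5.54, 5.98, 4.88 and 4.63). Ly6e had it on the deposited scale by a margin of less than 0.01, and lost it with size factors, where its values were 5.80, 7.17, 6.41 and 5.85. Ly6d had the reverse order, libraries 1 and 2 below 3 and 4, on both scales, shared with 11.4% of detected genes on the deposited scale and 28.6% with size factors. These shares describe the libraries and are not tests.

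**Figure D3:**
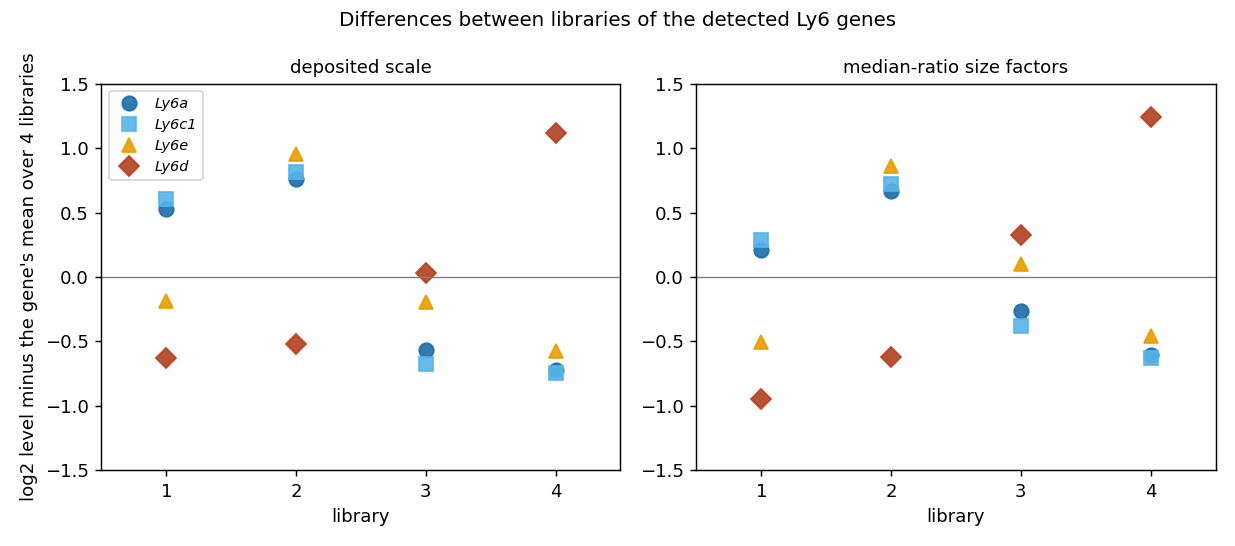
Log2 level of Ly6a, Ly6c1, Ly6e and Ly6d in each library minus the gene's mean over the 4 libraries, on the deposited scale (left) and with median-ratio size factors (right). Ly6a and Ly6c1 lie almost on each other in both panels, Ly6e is highest in library 2 and Ly6d in library 4.

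Genes were also ranked by this distance to find those whose pattern over the 4 libraries was most like each detected Ly6 gene, among 11011 named detected genes outside the family. With 4 values per gene such a ranking is a description. Nearest to Ly6a were Neil1, a DNA glycosylase gene (0.03), Sgol2, encoding a shugoshin that protects centromeric cohesin (0.03), and Fut10 (0.04). Neil1 had 298, 340, 108 and 123 reads. Nearest to Ly6c1 were Arrdc4 (0.02), C1qtnf2 (0.05) and Nkap (0.05). Ly6e was closest to the Wnt ligand gene Wnt2 (0.07), followed by the protein kinase C gene Prkch (0.09) and D6Mm5e (0.10). Ly6d was closest to Tmem82 (0.07), Wnt11 (0.14) and Enah, an actin filament elongation factor gene (0.14). Enah rose toward the same library as Ly6d, with values of 5.84, 5.63, 6.52 and 7.39. Leaving out 1 library replaced most of these 12 names, and 1 to 4 of them stayed.

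The Ly6 cluster holds both expressed and unexpressed genes side by side. From Slurp1 to Gpihbp1 the table listed 25 rows over 872 kb of chromosome 15. In this span 6 rows were detected, namely Slurp1, Lynx1, Ly6d, Ly6e, Ly6a and Ly6c1, and 7 had no reads in any library. Over the whole table, 47.4% of genes passed the detection threshold and 28.7% lacked reads throughout. Measured between lower coordinates, with Ly6a at 0, Ly6e lies at -39.8 kb, Ly6i at -15.1 kb and Ly6c1 at 50.1 kb. Beyond Ly6c1, toward Gpihbp1, no row was detected. The granulocyte antigen gene Ly6g had 0, 2, 0 and 0 reads, and Gpihbp1, which carries lipoprotein lipase across capillary endothelium, had none.

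**Figure D4:**
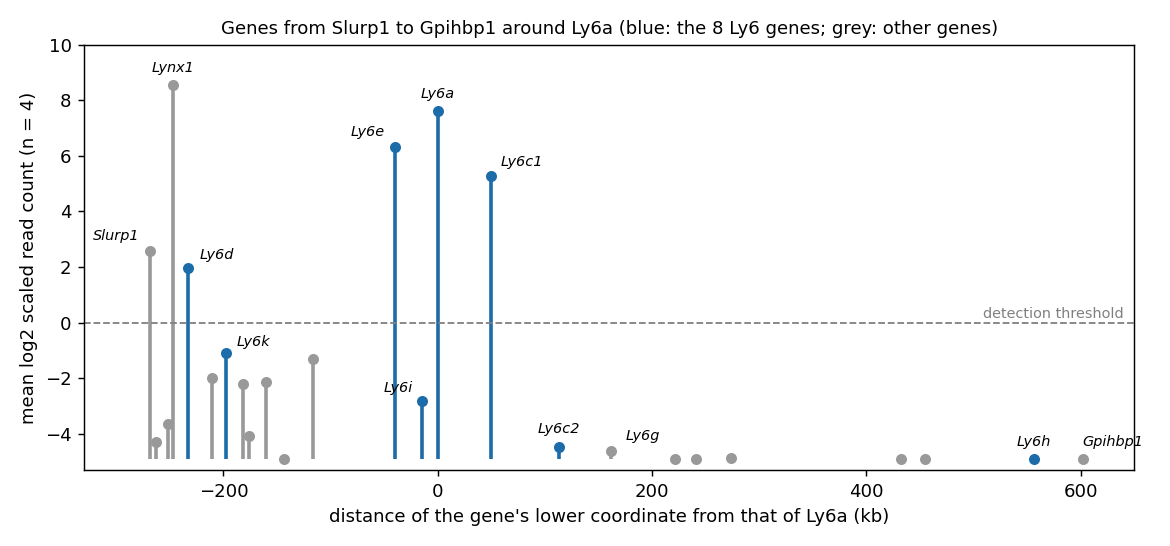
Mean log2 scaled read count over 4 libraries (vertical axis, stems drawn from the floor of the deposited values) against the distance of each gene's lower coordinate from that of Ly6a in kb, for the 25 rows from Slurp1 to Gpihbp1. Ly6e, Ly6a and Ly6c1 stand above the detection threshold with Ly6i between them below it, and no gene beyond Ly6c1 reaches the threshold.

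Most other genes of the Ly6/uPAR superfamily were not detected. Of 30 such genes 6 were detected and 9 were without reads throughout, against 47.4% and 28.7% of all genes in the table. Their median level was -4.73 ± 0.31 against 0.30 ± 0.36 for all genes. In libraries 1 to 4, 15, 14, 19 and 18 of the 30 had no reads, so this median lay at or near the floor of the deposited values. Lynx1, which encodes a modulator of nicotinic receptors, measured 8.57, 8.91, 8.33 and 8.43, a mean of 8.56 ± 0.25 not divided by length. Per kb of exon it averaged 6.34 against 7.34 for Ly6a. Lypd1 measured 8.60, 8.78, 7.70 and 7.64, high in the same libraries as Ly6a. Plaur, the gene of the urokinase receptor, measured 6.87, 6.88, 7.81 and 8.12, with the opposite order. The complement inhibitor genes Cd59a and Cd59b averaged 3.95 ± 0.53 and 1.11 ± 0.23, and Slurp1 2.58 ± 0.87. Ly6g6d was not called detected, with 48, 54, 14 and 86 reads.

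Genes that build the GPI anchor were expressed throughout. All 27 listed genes of anchor synthesis and attachment passed the detection threshold, against 47.4% of all genes in the table. The same share applies to the counts of detected genes in the lists below. The median of the 27 genes was 4.54 ± 0.22 against 5.11 ± 0.31 for all detected genes. Not divided by length, the highest values were those of Pigk, the catalytic subunit of the transamidase that attaches the anchor (7.97 ± 0.30), and its partners Pigs (7.64 ± 0.34) and Pigt (7.18 ± 0.20). Piga, Pigb and Pigc averaged 2.22 ± 0.46, 6.38 ± 0.70 and 2.73 ± 0.73.

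Of 14 surface markers used with SCA1 to sort stem and progenitor cells, 13 passed the threshold, and the median was 6.99 ± 0.29. Itgb1 (10.66 ± 0.41), Cd248 (9.61 ± 0.48) and Pdgfrb (9.52 ± 0.48) were highest. Thy1, another GPI-anchored marker, measured 9.56, 9.59, 8.71 and 8.48, high in the same libraries as Ly6a. Per exon length Ly6a minus Thy1 was -0.16 ± 0.20, with Ly6a the higher in 1 of 4 libraries (exact p = 0.25), a difference within the spread. This rests on the division by length: without it the difference was -1.47, with Thy1 the higher in 4 of 4 libraries. Cd34, a progenitor and endothelial sialomucin gene, had the opposite order of libraries, at 6.44, 6.96, 8.45 and 8.31. Ly6a exceeded Cd34 per exon length by 4.30, 4.00, 1.20 and 1.18, a mean of 2.67 ± 1.71. Not divided by length the mean was 0.07, with Cd34 the higher in libraries 3 and 4. The stem cell factor receptor gene Kit had 54, 6, 0 and 0 reads.

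Smooth muscle markers were high, with 9 of 10 detected at a list median of 8.40 ± 0.89, and 8 of them were lower in libraries 1 and 2 than in 3 and 4, on the deposited scale and with size factors. Of all detected genes, 11.4% had this order on the deposited scale and 28.6% with size factors. Tpm2, Acta2 and Tagln averaged 12.91 ± 0.92, 12.18 ± 1.05 and 11.48 ± 0.71. Cald1, which encodes the actin-binding protein caldesmon, was the exception among the 9, highest in library 1, at 12.30, 11.17, 11.51 and 11.77. Per exon length Ly6a minus Acta2 was -3.04, -1.52, -4.85 and -5.40, below 0 in 4 of 4 libraries (mean -3.70 ± 1.77). Ly6a exceeded Myh11, which encodes the myosin heavy chain of contractile smooth muscle, by 3.67, 5.70, 1.63 and 0.31 per exon length, a mean of 2.83 ± 2.36. Not divided by length the mean was 0.17, with Myh11 the higher in libraries 3 and 4. The gap was widest in library 2, where Myh11 had 1164 reads, and narrowest in library 4, where it had 17719. Cnn1 had the values 6.47, 5.36, 8.19 and 8.40.

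Markers of other cells that can carry Ly6 proteins were set beside these values. Ly6a exceeded the endothelial gene Pecam1 by 7.03 ± 1.02 and the leukocyte gene Ptprc by 13.33 ± 1.58 per exon length, each in 4 of 4 libraries. Library 3 had no Ptprc reads and entered at the floor of 0.9 read, and without it the Ptprc difference was 12.58. Not divided by length the mean differences were smaller, at 4.66 for Pecam1 and 9.40 for Ptprc. Of the 6 comparisons of Ly6a with marker genes, 5 had 1 sign in 4 of 4 libraries, with exact sign-flip p = 0.12 and Benjamini-Hochberg adjusted p = 0.15 over 6. Endothelial markers had 8 of 12 genes detected, with list medians of 2.90, 2.35, 3.44 and 1.34 in libraries 1 to 4. Their summed level was 171, 125, 217 and 179, and without Erg, the highest gene, 105, 65.6, 103 and 50.6. The medians and the sum without Erg were lowest in library 4, the whole sum in library 2. Cdh5 had 206, 78, 45 and 25 reads, and Kdr 30, 18, 5 and 1, and neither was called detected. Pecam1 had 326, 235, 312 and 81 reads. Of the 8 detected endothelial genes, 0 were higher in libraries 1 and 2 than in 3 and 4 on either scale. All detected genes had this order in 51.8% on the deposited scale and 27.0% with size factors. The reverse order held for 1 of the 8, and for 3 with size factors. The highest endothelial genes were Erg (6.44 ± 0.56), Flt1 (4.07 ± 0.75) and Egfl7 (4.05 ± 0.63).

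Among 13 leukocyte markers 2 passed the threshold, namely Csf1r (3.76 ± 0.64) and Lyz2 (2.74 ± 2.10), and the list median was -3.41 ± 1.77. In libraries 3 and 4 this median was the floor of the deposited values, with 10 and 7 of the 13 genes without reads. The summed level of the 13 genes was 60.7, 45.2, 13.9 and 13.4, higher in libraries 1 and 2 like Ly6a. Most of it came from Lyz2 (927, 441, 68 and 39 reads) and Csf1r (564, 581, 187 and 296). Both genes had this order on the deposited scale and with size factors, as did 51.8% and 27.0% of all detected genes. The macrophage gene C1qa had 173, 201, 0 and 18 reads and Cd68 had 49, 35, 42 and 21, while Ptprc had 13, 27, 0 and 12. Itgam had 20, 0, 0 and 0 reads, Emr1 14, 4, 0 and 0, and the monocyte receptor gene Ccr2 0, 1, 0 and 2. Of the neutrophil genes, S100a8 had 11 reads in library 2 and none elsewhere, and S100a9 had none. Of the 13 genes, 4 had 0 reads in each library, against 28.7% of all genes in the table. Among the 4 were the T cell gene Cd3e and the B cell gene Cd79a. The monocyte form Ly6c2, as given above, had 3 reads in all.

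Adventitial fibroblast markers had 11 of 12 genes detected at a list median of 5.67 ± 1.40, and 9 of them were higher in libraries 1 and 2 than in 3 and 4 (8 with size factors). Of all detected genes, 51.8% had this order on the deposited scale and 27.0% with size factors. The list medians were 6.84, 6.87, 4.89 and 4.09. The summed level of the list was 5110, 4497, 3524 and 3681. Gsn, nearly level across libraries on the deposited scale, supplied 3203, 3299, 2902 and 3062 of it. Without Gsn it was 1907, 1198, 623 and 619. Dpt, a dermatopontin gene, had 4133, 3750, 110 and 111 reads, a far wider span than that of Ly6a, and Pi16 had 476, 466, 145 and 99. Pdgfra measured 7.17, 6.77, 4.92 and 4.83. Gsn (11.60 ± 0.08), Col14a1 (7.65 ± 1.37) and Cd34 had the highest means of the list. The parts of fibroblast and leukocyte transcripts in the differences of Ly6a and Ly6c1 between libraries were not tested.

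**Figure D5:**
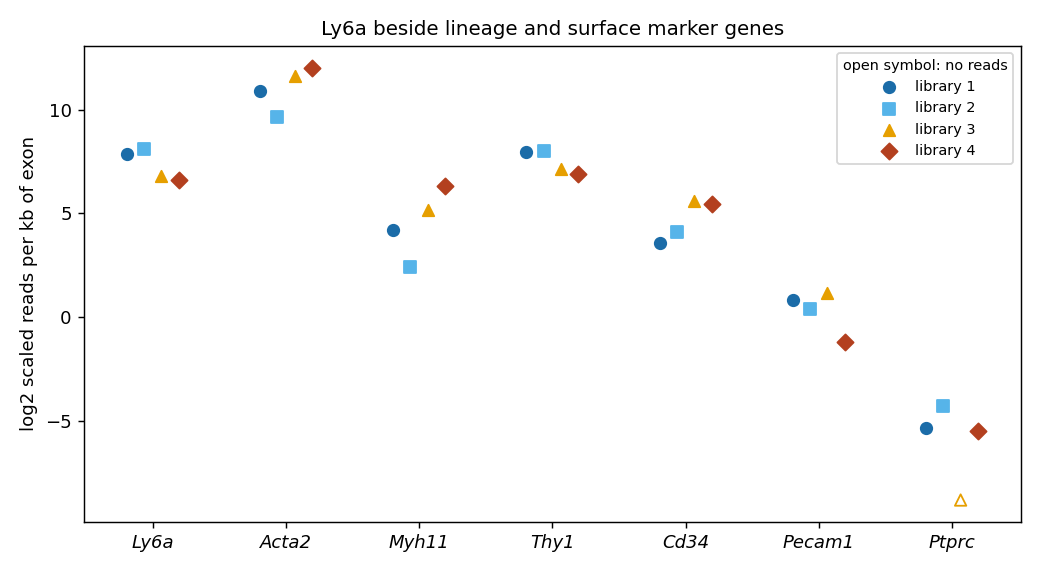
Log2 scaled reads per kb of exon (vertical axis) of Ly6a and 6 marker genes of smooth muscle, progenitor, endothelial and blood cells in libraries 1 to 4; the open symbol is a library without reads. Ly6a lies near Thy1 and below Acta2 in each library, and above Pecam1 and Ptprc.

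Interferon response genes were examined because Ly6a and Ly6e are known targets of the pathway. Of 21 genes 17 passed the threshold, and the median was 4.66 ± 0.42. On the deposited scale 14 of the 17 lay higher in libraries 1 and 2 than in 3 and 4, against 51.8% of all detected genes. With size factors this held for 7 of the 17, against 27.0%. Stat2, a transcription factor of the type I interferon response, measured 6.36, 5.80, 4.65 and 4.84. Irf1 had its lowest value in library 3, at 4.30, 4.12, 1.98 and 3.63. The highest genes of the list were Bst2 (6.90 ± 0.11), which carries a GPI anchor, the interferon-gamma receptor gene Ifngr2 (6.16 ± 0.39) and the RNA sensor gene Ddx58 (6.03 ± 0.59). On the deposited scale Bst2 varied least of the 17, while 8 of them had an SD above 0.5, against 40.5% of all detected genes. The part of interferon signalling in the differences of Ly6a and Ly6e between libraries was not tested.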

How the data were processed

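RNA from 4 libraries of 1 group was examined, so no groups were compared. The submitters' processing notes name Trim Galore, cutadapt, TopHat and GRCm38; no label or note read here gives the counting tool or its annotation. The authors deposited log2 values, which behave as log2 read counts scaled per library, not divided by length, with 0.9 read in place of 0. Whole reads were recovered from the size of 1 read (99.7% to 99.8% of values of genes with reads within 0.05 read of a whole number), giving 40342561 to 56793195 reads on genes per library. What was counted as 1 read is not stated, so thresholds and intervals hold in these units. Intervals (95%) cover counting error only.

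Exon lengths (union of exons) and transcripts were taken from GENCODE M21 (GRCm38) and found for 94.9% of the table's genes, while printed coordinates are those of the table. 5 list genes were found under older symbols, and of the rows named Pigb the one overlapping the annotated gene most was used. Named genes were all 8 members, the other Ly6/uPAR genes detected or with at least 30 reads in a library, the 3 highest detected and first 3 genes of each other list, the contrast genes and the 3 genes nearest each detected member. One gene named by this rule is not reported here. Cd3e, Cd79a, S100a8, S100a9, C1qa, Cd68, Ccr2, Cnn1, Ly6g, Gpihbp1 and Gm17189 fall outside this rule and were named after their values were seen. The members and lists were chosen with earlier results of these data known. Within-library differences used an exact sign-flip permutation test with 16 arrangements and Benjamini-Hochberg adjustment. The alternatives were median-ratio size factors, other thresholds, a pseudocount of 1, no division by length, genes without reads at 3 reads, list means and leaving out each library; the longest coding transcript as length, 3 reads in list medians, sums without a list's highest gene, the library order of list genes with size factors and a Poisson chi-square test were added after the data were seen. The calculations were checked on simulated reads with Poisson sampling only and a known pattern planted in genes with many reads. That check does not cover the wider spread of real libraries or recovery of a pattern in genes with few reads. Python 3.11.15, numpy 2.4.6, pandas 2.3.3, scipy 1.17.1, biopython 1.88 and matplotlib 3.10.9 were used.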

Additional observations from a re-analysis of the deposited data

How the results depend on the processing

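The number of detected Ly6 genes stayed at 4 with a stricter threshold, with detection in a single library and without any one library, and was 7 with no filter on low values. The number with an SD above 0.5 was 0 when an SD above 1 was required, and 3 to 4 without one library. The pairs with 1 order in all libraries numbered 19 to 20 without one library and 20 without division by length. These 20 include Ly6i and Ly6c2, which tied in library 3, where neither had reads. Ly6c1 minus Ly6e turned from 0.12 to -1.05 without division by length and to -0.14 without library 1 (-0.14 to 0.285 over the libraries left out). Without division by length, Ly6a minus Thy1, Myh11 and Cd34 was -1.47, 0.17 and 0.07 in place of -0.16, 2.83 and 2.67. On the same terms, Ly6a minus Acta2, Pecam1 and Ptprc was -4.57, 4.66 and 9.40 in place of -3.70, 7.03 and 13.33. Without library 2, Ly6a minus Myh11 was 1.87 and Ly6a minus Acta2 was -4.43 in place of -3.70. Without library 4, Ly6a minus Myh11 was 3.67, and without library 3, Ly6a minus Ptprc was 12.58 in place of 13.33. The distance between Ly6a and Ly6c1 was 0.0432 to 0.0856 without one library, against 0.0752 with all, and was lowest without library 3. List means in place of medians gave -2.13 for the other Ly6/uPAR genes, 6.60 for the progenitor surface markers and 3.96 for the interferon genes, and genes without reads at 3 reads gave -3.18 for the other Ly6/uPAR genes. No paired analysis was possible because all libraries belong to 1 group. Depth limits Ly6i, Ly6k, Ly6c2 and Ly6h, with at most 16 reads in a library. None of 28 tested values had a library that stood apart by Dixon's criterion.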
